A study of Mus musculus with 10 samples.

Results

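Clade B serpins are mostly intracellular relatives of ovalbumin, and many of them block serine or cysteine proteases. A protease that cuts the exposed reactive loop of such an inhibitor is trapped in a complex with it. In mouse the genes lie in clusters on 2 chromosomes, and the family is known from leukocytes, where its members guard cells against their own granule proteases, and from stratified epithelium, where several of them mark keratinocytes. The set described here was chosen by name, as the genes of the count table with the symbols Serpinb1a, Serpinb2, Serpinb5, Serpinb6a, Serpinb6b, Serpinb8, Serpinb9, Serpinb11, Serpinb12 and Serpinb13. All 10 were found among the 24421 genes of the table.

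Total RNA was sequenced from 10 libraries of laser-captured regions of formalin-fixed lung sections of NIH Swiss mice, labelled wild type. The 5 normal lung libraries came from untreated animals, and the 5 squamous cell carcinoma (SCC) libraries from lung tumours of animals given NTCU, a nitrosourea that induces such tumours. Age, sex and dose were not given in the sources used here. The labels do not tie regions to animals, so some libraries of a group may share an animal, and every p-value given here would then be too small and measures only the spread between libraries. In bulk samples of this kind, fewer cells of a type and less RNA per cell cannot be told apart.

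Total counts ran from 1457641 to 6817106 in normal lung and from 1004105 to 3691806 in SCC. The labels were checked against defining markers. All 8 squamous and basal cell markers tested rose in SCC, and their summed level was 22.0 to 50.1 CPM (counts scaled to a common library total) in normal libraries and 885 to 6580 CPM in SCC. Krt6a and Dsg3 of this list had 0 counts in normal lung. All 6 markers of alveolar type 2 cells fell, from 7120 to 10300 CPM to 393 to 714 CPM. SCC 1, SCC 3 and SCC 4 stood apart by counts on olfactory and vomeronasal receptor genes. Such counts were taken as background, and whether some of these genes are expressed in lung was not tested. These counts amounted to 3.26, 3.29 and 3.49 CPM per kb of coding length there, to 0.593 in SCC 2 and 0.412 in SCC 5, and to 0.0420 to 0.208 in normal lung. Scaled to the longest transcript of each gene, this rate gives a length-based background for every member in every library, which is printed beside the results below. Intervals and floors cover counting error only.

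The clade B counts changed their make-up between normal lung and SCC. In normal lung, Serpinb6a, Serpinb6b and Serpinb9 carried most of them. In SCC, Serpinb2, Serpinb5, Serpinb8 and Serpinb11 joined them, Serpinb1a was higher and Serpinb6b was lower. With edgeR's quasi-likelihood test at a Benjamini-Hochberg adjusted p under 0.05, 5 members were higher in SCC and 1 was lower, where 12.5% of all 13203 genes tested were higher, 8.68% lower and 21.1% one or the other. In plain CPM the same 5 members had all SCC libraries above all normal ones, as 8.81% of the genes tested did, and the same 1 member had them all below, as 5.77% did. The filter on low counts asked for about 4.69 CPM in each of 5 libraries, and 8 of the 10 members passed it. Of these, 5 passed only through the SCC libraries, and they are the 5 that were called higher, so their number is not read against the share of all genes. Serpinb6a, Serpinb6b and Serpinb9 passed in both groups. Serpinb12 and Serpinb13 had too few counts.

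**Figure D1:**
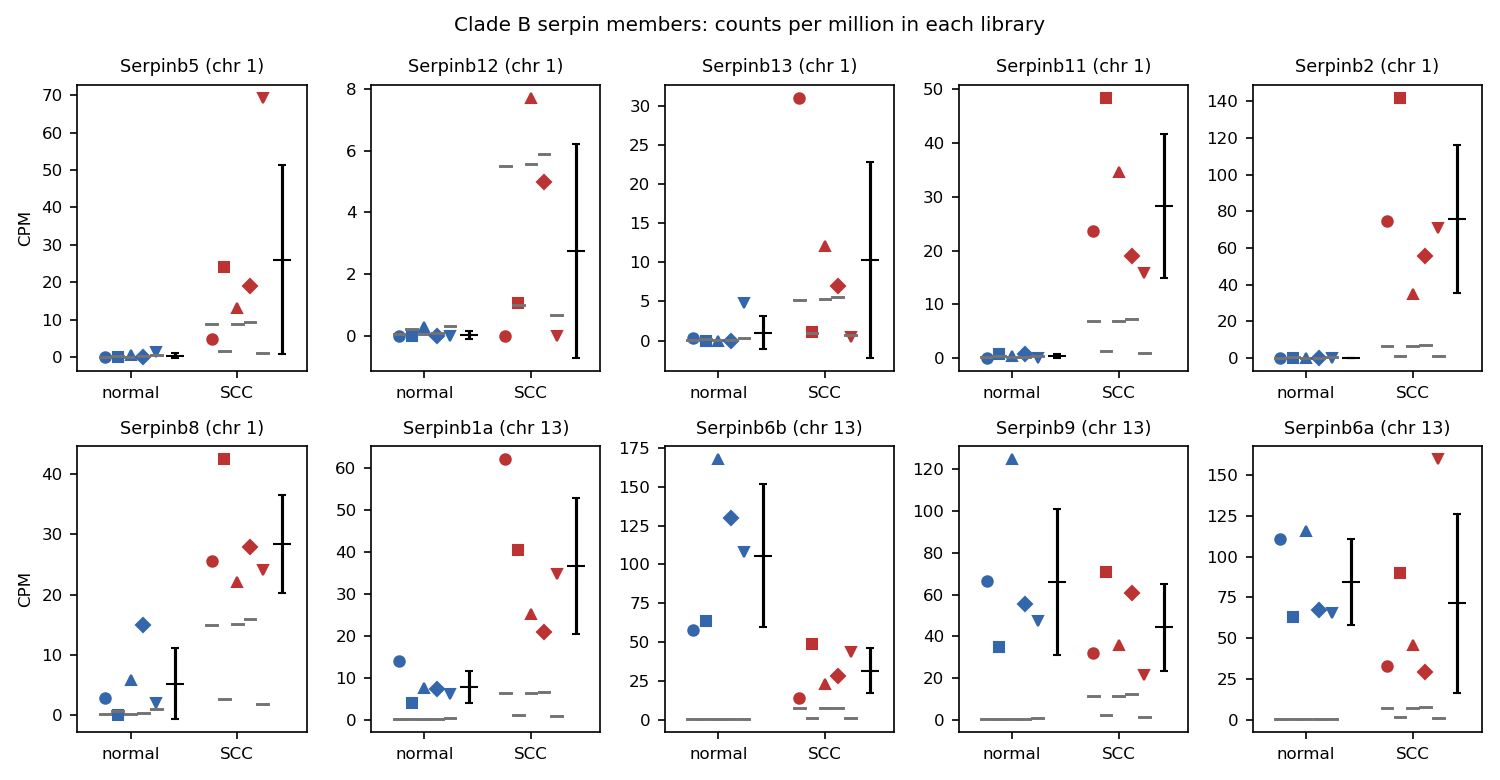
Level of each member in CPM by library, blue in normal lung and red in SCC, with 1 marker shape per replicate number, black bars that give mean and SD within a group, and grey dashes for the length-based background. Serpinb2 is at 0 in all normal libraries and at 34.7 to 142 CPM in SCC, and Serpinb12 is above the grey dashes in 2 of the SCC libraries.

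The members fall into both clusters. In the GENCODE M21 annotation of GRCm38 (the assembly of mm10, the build of the files), 6 of them lie on the plus strand of chromosome 1. These are Serpinb5 (106861173 to 106883348), Serpinb12 (106934449 to 106957080), Serpinb13 (106980984 to 107001195), Serpinb11 (107361198 to 107380475), Serpinb2 (107511423 to 107535478) and Serpinb8 (107590006 to 107610484). The other 4 lie on chromosome 13, with Serpinb1a (32842092 to 32851185) and Serpinb6a (33917918 to 34002794) on the minus strand and Serpinb6b (32965209 to 32979067) and Serpinb9 (33003250 to 33017957) on the plus strand. The chromosome 1 members held 1.27%, 0.412%, 1.66%, 5.73% and 3.51% of the members' counts in normal 1 to normal 5. They held 53.0%, 50.9%, 49.0%, 49.1% and 41.1% in SCC 1 to SCC 5. The groups did not overlap in this share. Summed, the chromosome 1 members stood at 0.684 to 15.8 CPM in normal lung and at 124 to 259 CPM in SCC, while the chromosome 13 members stood at 165 to 416 CPM and at 129 to 259 CPM. These shares and sums have the length-based background left in.

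**Figure D2:**
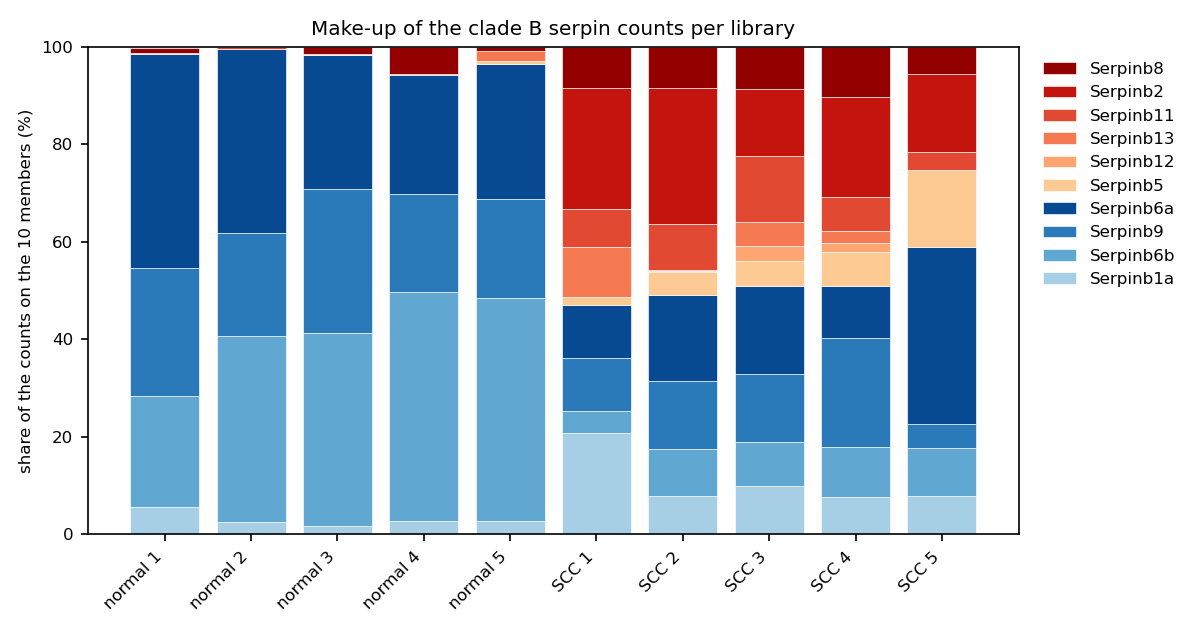
Share of each member in the counts on all 10 members, as a stacked bar per library, with chromosome 13 members in blue and chromosome 1 members in orange to red. The chromosome 1 share is at most 5.73% in normal libraries and 41.1% to 53.0% in SCC libraries.

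The 250 bases before the start sites are shown because all chromosome 1 members with a RefSeq promoter have letters in common there. These include Serpinb12, which had too few counts for the test and has a match 45 bases before its start. Its sequence is not printed. Whether the letters go with the rise in SCC was not tested. RefSeq promoters (GRCm38.p6, C57BL/6J reference, not the NIH Swiss strain of the samples) matched 8 of the 10 members, all but Serpinb1a and Serpinb13. A search of both strands for TGANTCA, the letters bound by AP-1 factors, a motif picked after the sequences had been looked at, found it in 5 of 5 chromosome 1 members and in 0 of 3 chromosome 13 members. The same letters stood in 6.75% of the 32851 promoter windows of this length. Of the other clade B genes, they stood in 2 of 6 on chromosome 1 (Serpinb7 and Serpinb10) and in 0 of 11 on chromosome 13. These other genes were searched at every RefSeq start site, and each member only at the start nearest its GENCODE start, so the searches differ. Neighbouring promoters of a duplicated family are not independent, and a match of letters is a description and not a binding site. The TATA box letters TATAAA, looked for in the same way, stood in Serpinb2 and Serpinb12 and in 12.4% of all windows. The sequences below run 5′ to 3′ and end at the base before the RefSeq start site, with TGANTCA in capitals. RefSeq and GENCODE starts can differ. The windows of Serpinb5 and Serpinb6b end inside the GENCODE gene bodies given above. The window of Serpinb11, with its matches, lies wholly inside its gene body. So does the window of Serpinb9 (33004291 to 33004540), which is not printed.
Serpinb2, chr1:107511173-107511422, plus strand: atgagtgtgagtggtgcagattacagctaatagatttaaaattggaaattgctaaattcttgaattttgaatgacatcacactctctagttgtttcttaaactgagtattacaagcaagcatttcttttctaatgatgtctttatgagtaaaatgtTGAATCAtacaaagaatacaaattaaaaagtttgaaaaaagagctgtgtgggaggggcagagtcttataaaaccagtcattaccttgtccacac
Serpinb5, chr1:106860925-106861174, plus strand: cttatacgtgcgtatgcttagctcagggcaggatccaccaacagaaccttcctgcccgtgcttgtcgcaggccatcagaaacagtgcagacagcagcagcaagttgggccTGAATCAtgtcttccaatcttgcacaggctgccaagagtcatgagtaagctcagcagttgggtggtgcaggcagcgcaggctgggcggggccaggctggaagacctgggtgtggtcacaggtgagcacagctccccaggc
Serpinb11, chr1:107362064-107362313, plus strand: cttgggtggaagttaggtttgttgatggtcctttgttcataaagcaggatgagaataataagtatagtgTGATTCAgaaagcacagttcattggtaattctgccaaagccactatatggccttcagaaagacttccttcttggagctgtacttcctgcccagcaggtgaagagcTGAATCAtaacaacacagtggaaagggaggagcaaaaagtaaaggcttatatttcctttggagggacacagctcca
Serpinb8, chr1:107589756-107590005, plus strand: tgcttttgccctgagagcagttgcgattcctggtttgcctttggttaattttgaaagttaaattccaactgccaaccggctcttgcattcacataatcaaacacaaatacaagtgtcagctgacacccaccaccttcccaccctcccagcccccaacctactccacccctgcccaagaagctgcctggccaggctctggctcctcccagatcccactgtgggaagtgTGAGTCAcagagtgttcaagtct
Serpinb6b, chr13:32965011-32965260, plus strand, shown as the chromosome 13 member that fell: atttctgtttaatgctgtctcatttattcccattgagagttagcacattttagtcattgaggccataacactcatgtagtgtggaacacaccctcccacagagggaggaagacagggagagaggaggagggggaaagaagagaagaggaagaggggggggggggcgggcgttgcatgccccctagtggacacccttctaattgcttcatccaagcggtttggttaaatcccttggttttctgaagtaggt
The match begins 94 bases before the start of Serpinb2, 140 before Serpinb5 and 23 before Serpinb8. Serpinb11 has a match at 181 and another at 76 bases before its RefSeq start, which lies downstream of its GENCODE start.

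Serpinb2, plasminogen activator inhibitor 2, blocks urokinase and tissue plasminogen activator. It had 0 counts in every normal library. In SCC 1 to SCC 5 it reached 74.5, 142, 34.7, 55.8 and 71.0 CPM. Every SCC library was thus above every normal library, and SCC 2 was the highest. The mean of 75.6 ± 40.4 CPM (SD, n = 5) was at least 381-fold higher than in normal lung, taking a floor of 3 counts over the normal group, and at least 297-fold higher without SCC 2 (edgeR adjusted p = 4.55e-08). The length-based background was 3.59% of its 897 SCC counts, and 8.74%, 0.832%, 18.9%, 12.5% and 1.16% in SCC 1 to SCC 5. The call held when SCC 1, SCC 3 and SCC 4 were left out together (adjusted p = 6.73e-07). It also held once the background had been subtracted (adjusted p = 5.29e-06). GENCODE M21 lets the gene run into its neighbour Serpinb10, which shares 10.4% of the 50-base words of Serpinb2 transcripts, so reads there could be counted for either gene or for none.

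Its target proteases moved less. Plau (urokinase) was at 13.1 ± 10.9 CPM in normal lung and 30.3 ± 15.4 CPM in SCC (SD, n = 5 each), a log2 difference of 1.13 that missed the threshold (adjusted p = 0.198 with edgeR). Plat (tissue plasminogen activator) differed by 0.62 (adjusted p = 0.418) and Plaur, the urokinase receptor, by -0.28 (adjusted p = 0.823). Of the 5 tested genes of plasminogen activation and membrane serine proteases, 1 rose and the rest were not called. St14, the membrane protease matriptase, went from 22.6 ± 10.4 to 115 ± 77.7 CPM (log2 fold change 2.21, SE 0.47, adjusted p = 0.0013).

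Serpinb5, maspin, is a clade B protein without known inhibitory action on proteases, expressed in squamous and glandular epithelium. It had 0, 0, 0.440, 0 and 1.37 CPM in normal 1 to normal 5, from 5 counts in all. SCC 1 to SCC 5 had 4.71, 24.1, 13.2, 18.9 and 69.4 CPM. The groups did not overlap, and the SCC libraries spread 14.7-fold, with SCC 5 highest and SCC 1 lowest. The log2 fold change was 6.09 (SE 1.05, edgeR adjusted p = 0.000135). In SCC 1 the value lay under the length-based background of 8.72 CPM, whereas SCC 2 and SCC 5 had 24.1 and 69.4 CPM over backgrounds of 1.58 and 1.10 CPM. With those libraries alone the log2 fold change was 6.93 (adjusted p = 0.000138). The gene passed the filter by a narrow margin, and it was no longer tested without SCC 2, without SCC 5 or after background subtraction.

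Serpinb11, whose mouse protein is described as an inhibitor of trypsin-like proteases, was at 0, 0.684, 0.440, 0.772 and 0 CPM in normal lung. Its level in SCC 1 to SCC 5 was 23.6, 48.5, 34.7, 18.9 and 15.9 CPM. No SCC library came near the normal range, and SCC 2 was the highest here too. The log2 fold change was 5.90 (SE 0.89, edgeR adjusted p = 2.84e-05). It was 6.07 with SCC 2 and SCC 5 alone (adjusted p = 0.000647). Subtracting the background first gave 6.24 (adjusted p = 0.000469). The background was 10.3% of the pooled SCC counts, and 28.8%, 2.55%, 19.8%, 38.4% and 5.39% in SCC 1 to SCC 5. No other gene shares a 50-base word with Serpinb11.

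Serpinb8 blocks furin and related proprotein convertases. It was at 2.86, 0, 5.87, 15 and 2.06 CPM in normal lung and at 25.5, 42.5, 22.0, 27.9 and 24.1 CPM in SCC 1 to SCC 5. The SCC libraries lay within 1.93-fold of each other with the background left in, and none overlapped the normal range. The log2 fold change was 2.26 (SE 0.74, edgeR adjusted p = 0.0301). Serpinb8 has the longest transcript of the members (4.581 kb), and the background amounted to 23.8% of its SCC counts. By library, SCC 1 to SCC 5, this share was 58.7%, 6.38%, 68.4%, 57.3% and 7.83%. The call was lost after background subtraction (2.08, adjusted p = 0.168), when SCC 1, SCC 3 and SCC 4 were left out together (2.47, adjusted p = 0.118), and on leaving out any normal library but normal 4, or SCC 2, or SCC 4 (adjusted p = 0.0559 to 0.0823). Of 4 convertases, Furin itself differed by -0.29 (adjusted p = 0.657), Pcsk6 rose by 2.49 (SE 0.50, adjusted p = 0.000752) and Pcsk5 was at -0.96 (SE 0.34, adjusted p = 0.0457).

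Serpinb13 (headpin), an inhibitor of the cysteine cathepsins L and K in keratinocytes, had too few counts for the test. Its level was 0.358, 0, 0, 0 and 4.80 CPM in normal lung and 31.1, 1.08, 12.1, 6.97 and 0.408 CPM in SCC 1 to SCC 5. The groups overlapped. Its 67 SCC counts lay mostly in SCC 1, SCC 3 and SCC 4, the libraries of high receptor signal, while SCC 2 and SCC 5, with the lower signal, had 4 and 1 counts. SCC 1 stood well above its background of 5.24 CPM and SCC 5 below its own of 0.661 CPM. With no filter the log2 fold change was 2.83 (edgeR adjusted p = 0.0492), with a filter of 1 CPM in 5 libraries 3.14 (adjusted p = 0.0564), and without normal 2, where it passed the usual filter, 2.80 (adjusted p = 0.134). The part of the background in these values was not tested.

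Serpinb12, an inhibitor of trypsin-like proteases known from surface epithelium, also had too few counts. It had 2 counts in normal 3 and 0 in the other normal libraries. SCC 1 to SCC 5 held 0, 4, 14, 5 and 0 counts. The ratio of the pooled levels was 17.4 (95% counting interval 4.29 to 152), but the length-based background came to 118% of the 23 SCC counts. With no filter its log2 fold change was 3.69 and missed the threshold (edgeR adjusted p = 0.0541). Summed over the SCC libraries, its counts did not exceed the background.

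On chromosome 13, Serpinb1a was the member that rose. It is the mouse form of the leukocyte elastase inhibitor and blocks neutrophil elastase, cathepsin G and proteinase 3. It was at 14.0, 4.10, 7.48, 7.33 and 6.17 CPM in normal lung and at 62.2, 40.4, 25.3, 20.9 and 34.7 CPM in SCC 1 to SCC 5. The lowest SCC library was above the highest normal one. The log2 fold change was 2.10 (SE 0.55, edgeR adjusted p = 0.007), and the background was 8.43% of the pooled SCC counts. This share was 10.1%, 2.82%, 24.9%, 32.0% and 2.27% in SCC 1 to SCC 5. The call held once the background had been subtracted (2.38, adjusted p = 0.0143). It was lost when SCC 1, SCC 3 and SCC 4 were left out together (2.14, adjusted p = 0.0669) and with the receptor signal as a covariate (2.76, adjusted p = 0.129). This signal was higher in every SCC library than in every normal one, so the covariate fit cannot cleanly separate it from the group.

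The enzymes it blocks were near the limit of detection. Elane (neutrophil elastase) had 2 counts in normal lung and 12 in SCC, Ctsg (cathepsin G) 0 and 17, and Prtn3 (proteinase 3) 0 and 14, and none was tested. The length-based background of these genes is not given here, so these counts are not read as a rise. Of 4 neutrophil markers tested, 2 rose and the others were not called. Cxcr2 rose by 2.30 (SE 0.42, adjusted p = 0.000275) and Mpo by 3.64 (SE 1.0, adjusted p = 0.00993), while S100a9 stood at -1.22 (adjusted p = 0.22) and Csf3r at 0.30 (adjusted p = 0.692). With SCC 2 and SCC 5 alone, neither Cxcr2 nor Mpo was called. Summed over the 8 neutrophil markers in the table, levels were 61.7 to 179 CPM in normal lung and 124 to 386 CPM in SCC, and no marker was at 0 counts in either group. They were 311, 386 and 312 CPM in SCC 1, SCC 3 and SCC 4 and 173 and 124 CPM in SCC 2 and SCC 5. Cxcr2 made the largest part of the rise in this sum, with means of 28.2 CPM in normal lung and 153 CPM in SCC. Mpo, Csf3r, Retnlg and Camp also had higher means in SCC, while S100a8, S100a9 and Ngp had lower ones. Apart from Cxcr2 and Mpo, every marker of the sum overlapped between the groups. The part of neutrophils in the level of Serpinb1a was not tested.

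Serpinb6a and Serpinb6b are sister genes, and Serpinb6a is a broad intracellular inhibitor that also blocks cathepsin G. Serpinb6b was at 58.0, 63.6, 168, 130 and 108 CPM in normal lung and at 14.1, 49.0, 22.6, 27.9 and 43.3 CPM in SCC 1 to SCC 5. The groups did not overlap. It fell by 1.84 on the log2 scale (SE 0.42, edgeR adjusted p = 0.00214). The call held after background subtraction (-1.73, adjusted p = 0.0165). It was lost with SCC 2 and SCC 5 alone (-1.33, adjusted p = 0.0859) or with the covariate (-0.68, adjusted p = 0.643).

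Serpinb6a was at 111, 62.9, 116, 67.5 and 65.2 CPM in normal lung and at 33.0, 89.7, 45.7, 28.9 and 160 CPM in SCC. Here the SCC libraries fell on both sides of the normal range: SCC 1, SCC 3 and SCC 4 lay below it, SCC 2 within it and SCC 5 above it. The log2 difference was -0.30 (SE 0.43, edgeR adjusted p = 0.683), and it turned to 1.77 with the receptor signal as a covariate (adjusted p = 0.0685) and to 0.47 when SCC 1, SCC 3 and SCC 4 were left out together (adjusted p = 0.555). With limma-voom and sample quality weights it was -1.18 (adjusted p = 0.00508). Of the 50-base words in their transcripts, Serpinb6a shared 0.751% and Serpinb6b 2.92% with other genes, so most of their sequence can be told apart.

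Serpinb9 blocks granzyme B and is known from cytotoxic and dendritic cells. It was at 66.6, 34.9, 125, 55.5 and 47.3 CPM in normal lung and at 32.1, 71.0, 35.8, 60.8 and 21.6 CPM in SCC. The groups overlapped between 34.9 and 71.0 CPM. The log2 difference of -0.70 (SE 0.42) missed the threshold (edgeR adjusted p = 0.259), and it was 0.03 with the covariate. Granzymes were too low to test, with Gzmb at 20 counts in normal lung and 36 in SCC, the background left in. Of 4 tested T and NK cell markers none was called with edgeR or DESeq2, and 1 had an unadjusted p under 0.05 (Cd8a, log2 difference 1.84, edgeR adjusted p = 0.117, named after its values were seen). Their list, of 8 genes, summed to 120 to 231 CPM in normal lung and 63.4 to 331 CPM in SCC, with none at 0 counts in either group.

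The log2 fold changes of the tested members were set side by side in 3 fits, because the receptor signal differed between the SCC libraries. Serpinb2 and Serpinb11 were called in each of them. Serpinb5 was called in the fits that tested it, which leaves out the one after background subtraction. In the main fit Serpinb2, Serpinb5 and Serpinb11 passed the filter only through the SCC libraries, so repeated calls are not independent support.

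**Figure D3:**
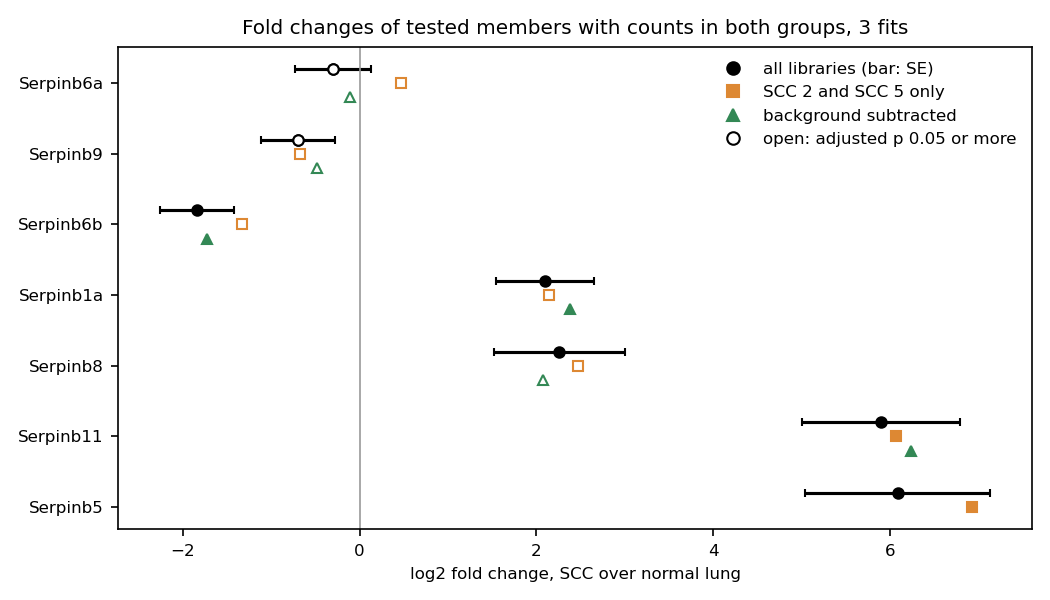
Log2 fold change of SCC over normal lung for the 7 tested members with counts in both groups (Serpinb2 has no count in normal lung), with circles and SE bars for all libraries, squares for SCC 2 and SCC 5 alone, triangles after background subtraction, and open symbols where the adjusted p is 0.05 or more. Serpinb11 lies between 5.90 and 6.24 in the 3 fits, Serpinb5 at 6.09 and 6.93 in the fits that tested it, and Serpinb6a lies on both sides of 0.

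**Figure D4:**
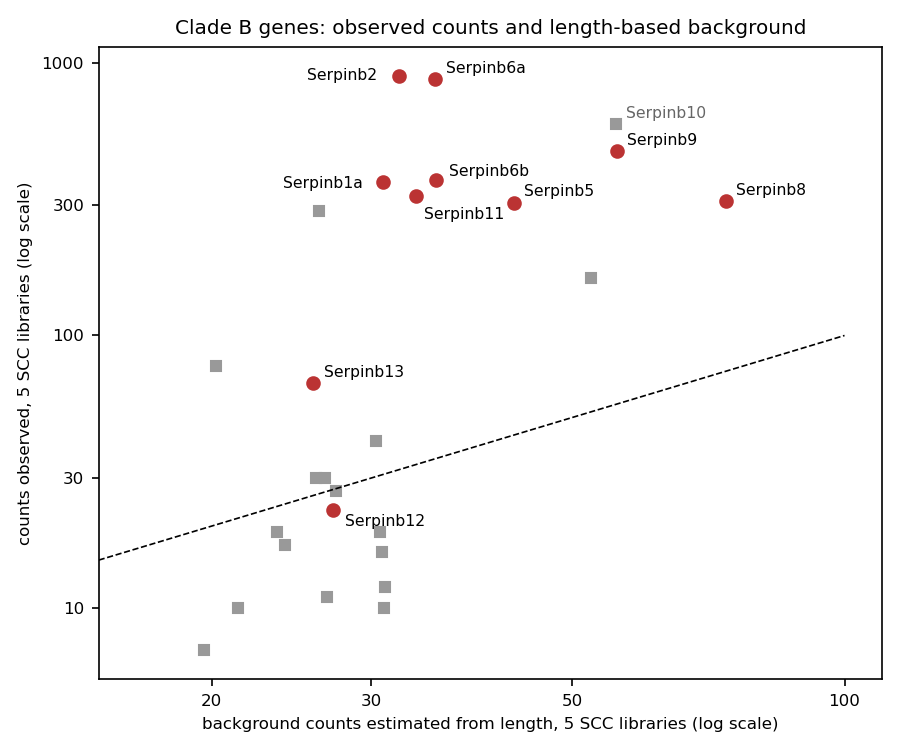
Counts over the 5 SCC libraries against the background expected from transcript length, both on log scales, for the 10 members (red circles) and 17 other clade B genes (grey squares), with the dashed line at equality. Serpinb12 lies under the line with 23 counts against 27.2, and Serpinb2 is the farthest above it with 897 against 32.2.

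Compared per kb of transcript, the order of the levels also changed. In normal lung Serpinb6b led at 48.0 ± 21.0 CPM per kb, followed by Serpinb6a (38.6 ± 12.1), Serpinb9 (19.0 ± 10.1), Serpinb1a (4.07 ± 1.93) and Serpinb8 (1.13 ± 1.29), each as mean ± SD over 5 libraries. Serpinb6b and Serpinb6a did not differ beyond the spread of their within-library difference, and the next steps down to Serpinb8 did, each in the same direction in 5 of 5 libraries. Below Serpinb8 no neighbours differed beyond that spread. In SCC, Serpinb2 led at 37.9 ± 20.2 CPM per kb, followed by Serpinb6a (32.6 ± 25.1), Serpinb1a (19.1 ± 8.44), Serpinb6b (14.3 ± 6.61), Serpinb11 (13.6 ± 6.40), Serpinb9 (12.7 ± 5.97), Serpinb5 (9.76 ± 9.46), Serpinb13 (6.43 ± 7.81), Serpinb8 (6.20 ± 1.79) and Serpinb12 (1.63 ± 2.04). Among these neighbours, Serpinb8 over Serpinb12 was the step beyond the spread.

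The SCC libraries did not rank the members alike. The ranks here are of plain CPM, with the background left in. SCC 5 was highest for Serpinb5 (69.4 CPM) and Serpinb6a (160 CPM) and lowest for Serpinb9, Serpinb11 and, at 1 count, Serpinb13. Some lowest ranks depend on the background. Serpinb11 was at 18.9 CPM over a background of 7.27 CPM in SCC 4 and at 15.9 over 0.858 CPM in SCC 5. With the background taken off, SCC 4 would be the lower. Serpinb9 was at 32.1 over 11.3 CPM in SCC 1 and 21.6 over 1.43 CPM in SCC 5. SCC 2 was highest for Serpinb2, Serpinb6b, Serpinb8, Serpinb9 and Serpinb11, and SCC 1 for Serpinb1a and Serpinb13. Krt5, a basal cell keratin, was at 396, 598, 201, 343 and 1490 CPM in SCC 1 to SCC 5, and Trp63, the basal cell transcription factor, at 158, 98.6, 83.7, 84.7 and 281 CPM. Both were highest in SCC 5, as were Serpinb5 and Serpinb6a, and lowest in SCC 3, as were Serpinb2 and Serpinb8. No member had both its highest level in SCC 5 and its lowest in SCC 3.

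Genes of most like pattern were taken over all 10 libraries as those with the smallest root mean square difference in centred log2 CPM, among 12371 tested genes averaging 5 CPM or more. For Serpinb2 these were Cwh43 (0.60) and Sox21 (0.63), and for Serpinb5 Trim29 and Oit1 (0.51 each). For Serpinb11 they were Lnx1 (0.55) and Sox15 (0.57), and for Serpinb8 Tmem30b (0.62) and Hcar2 (0.65). For Serpinb1a they were L1cam (0.26) and Phlda3 (0.38), and for Serpinb6b Eps15 (0.34) and Atp2c1 (0.36). Serpinb6a was closest to Tcf25 (0.22) and Gng12 (0.24), and Serpinb9 to Tnip1 (0.30) and Mga (0.32). The difference between the groups weighs most in these values for the members that rose or fell.

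Cathepsins L and K, the targets of Serpinb13, were not called. Ctsl was at 62.6 ± 31.8 CPM in normal lung and 141 ± 112 CPM in SCC (SD, n = 5 each, log2 difference 1.09, edgeR adjusted p = 0.101), and Ctsk differed by 1.74 (adjusted p = 0.103). Of all 6 cysteine cathepsins tested, 2 fell and none rose with edgeR or DESeq2 (2 higher at an unadjusted p under 0.05), and those that fell are other cathepsins. Ctsc fell by 1.58 (SE 0.35, adjusted p = 0.00188) and Ctsh by 1.12 (SE 0.39, adjusted p = 0.0404). With SCC 2 and SCC 5 alone, 1 of the 6 was called, and it was higher.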

How the data were processed

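The authors deposited raw counts, whole numbers for 24421 gene symbols in 10 libraries. The submitters' processing notes list DESeq2, HTSeq 0.6.1, TopHat2 2.0.1, cutadapt 1.9.1 and the build mm10. Annotation, strand setting and the treatment of multiply mapping reads were not given in the sources used here. Per the labels' protocols, RNA came from laser-captured, formalin-fixed sections and a stranded kit for picogram input.

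Levels are CPM of the total counts. All genes were fitted in R 4.3.3 with edgeR 4.0.16 (filterByExpr, TMM, robust quasi-likelihood test, Benjamini-Hochberg over 13203 genes); the SE is the log2 fold change over the square root of F. DESeq2 1.42.0 and limma-voom (limma 3.58.1) were alternatives. On simulated counts for this comparison (11382 genes), 1.49% of 2-fold, 32.8% of 4-fold and 80.3% of 8-fold changes were found, with 2 false calls. These counts were drawn from normal lung means with a common dispersion and without the length-based background. Changes were placed only in genes above a minimum level in normal lung. The simulation therefore does not cover calls caused by background, or genes nearly absent from normal lung.

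The receptor signal sums counts over 1438 olfactory and vomeronasal receptor genes and divides by their coding length in kb, after the top 2% of these genes per library were capped at percentile 98. The background is this rate times the longest transcript (GENCODE M21, matched for 24026 genes, 650 through an older symbol). It amounts to 24.8%, 4.51%, 25.0%, 26.5% and 3.13% of counts in SCC 1 to SCC 5.

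All members are named, with the 2 tested genes of most like pattern each, Krt5 and Trp63, and at most the 4 called genes of smallest p in each other list. Genes of these lists that were not called or not tested, and Serpinb9b and Serpinb9d, fall outside this rule: they are named by role, with their values known. Members and lists were chosen with earlier results of these data known, as were the alternatives.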

Additional observations from a re-analysis of the deposited data

Results flagged for a closer look

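The 10 members were searched in both groups for a library far from the other 4 on the log2 CPM scale, which gave 19 groups with any spread. The cut-off flags about 1 in 20 groups by chance if values are continuous. That rate does not apply where libraries tie at 0 counts, as in both groups flagged below. Serpinb12 in normal 3 stood at 0.13, against -0.33 in each other normal library, and rests on 2 counts. With the other 4 libraries at 0 counts, any count would have been flagged. Serpinb13 in normal 5 stood at 2.60 (4.80 CPM), where the next normal library was at 0.21.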

How the results depend on the processing

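No paired analysis was possible because the labels give no replicate numbers that the groups share. With all libraries 1645 genes were higher and 1146 lower, 12.5% and 8.68% of those tested. These counts were 5470 (23.9%) and 2072 (9.04%) with no filter, and 3259 (24.7%) and 2766 (20.9%) with limma-voom. With SCC 2 and SCC 5 alone they were 592 (4.14%) and 738 (5.16%). With the receptor signal as a covariate they were 469 (3.55%) and 376 (2.85%). Higher genes numbered 3551 (20.6%) with a filter of 1 CPM in 5 libraries. After background subtraction 936 (8.14%) were higher and 6.73% lower. Leaving out 1 library at a time gave 1304 to 2207 higher genes (9.49% to 14.8%) and 1009 to 1473 lower genes (7.35% to 10.9%).

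Of the members, 5 were higher and 1 lower, and 6 were higher with no filter, where Serpinb13 joined them. The shares of all genes called in the same fits are given above, and the member counts are not read as exceeding them. There were 3 higher with SCC 2 and SCC 5 alone, after background subtraction and with the covariate, and 3 to 5 with 1 library left out (3 without SCC 2). There were 2 lower with limma-voom and 0 lower with SCC 2 and SCC 5 alone or with the covariate (edgeR; 1 and 0 at an unadjusted p under 0.05), and 1 lower whichever library was left out. Serpinb6a went to 0.47 with SCC 2 and SCC 5 alone and to 1.77 with the covariate, and Serpinb9 to 0.03 with the covariate. Under the covariate Serpinb1a (2.76, adjusted p = 0.129), Serpinb6b (-0.68, adjusted p = 0.643) and Serpinb8 (3.50, adjusted p = 0.175) lost their calls. The receptor signal was 0.042 to 0.208 CPM per kb in normal lung and 0.412 to 3.49 in SCC, without overlap. The covariate is thus confounded with the group, and values of this fit cannot be assigned to either. Serpinb2 and Serpinb11 were called in all 20 alternatives and Serpinb5 in the 17 that tested it. In the main fit these members passed the filter only through the SCC libraries, where they are high. A call therefore goes largely with being tested, and these numbers of calls are not independent support. The cause of the moves between settings was not tested.

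The scaling moved the median of all genes from 0.07 with TMM to 0.16 with DESeq2 size factors, 0.27 with upper-quartile factors and -0.30 with no filter, and these 3 settings left the direction of each tested member as it was. With 23 and 67 SCC counts, Serpinb12 and Serpinb13 are the members measured least precisely.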

Other observations

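Other clade B genes were mostly at the background. Of the 17 in the table, 10 had SCC counts at or under the length-based background and 7 had no count in normal lung, and 2 were tested. Serpinb10, the chromosome 1 neighbour of Serpinb2, was at 2.51, 0, 4.40, 1.54 and 15.1 CPM in normal 1 to normal 5 and at 55.6, 115, 10.5, 32.9 and 25.3 CPM in SCC 1 to SCC 5. It rose by 3.24 on the log2 scale (SE 0.76, edgeR adjusted p = 0.00277), although SCC 3 lay within the normal range and under its own background of 11.4 CPM. Serpinb1c, a chromosome 13 relative of Serpinb1a, was at 62.8 ± 25.8 CPM in normal lung and 33.1 ± 10.8 CPM in SCC (SD, n = 5 each), a log2 difference of -1.05 that missed the threshold (adjusted p = 0.0866 with edgeR). Serpinb9b had 140 of its 162 SCC counts in SCC 2, and Serpinb9d 70 of 77 in SCC 3 and SCC 4.

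Of 7 tested cystatins and other secreted or membrane inhibitors outside clade B, 5 rose and 1 fell, where 12.5% of all genes tested were higher and 8.68% lower. The list was not tested as a group. Spink5, the epidermal inhibitor of kallikreins, rose by 9.48 (SE 0.80, edgeR adjusted p = 1.08e-08) and Csta1, a cystatin of keratinocytes, by 4.01 (SE 1.02, adjusted p = 0.00552). Cst3, cystatin C, fell by 1.57 (SE 0.38, adjusted p = 0.00374). Of 10 tested serpins of other clades, 3 rose and 2 fell, beside the same shares of all genes. Serping1, the C1 inhibitor, fell by 1.72 (SE 0.38, edgeR adjusted p = 0.00157) and Serpinh1, the collagen chaperone, fell by 1.64 (SE 0.39, adjusted p = 0.00345). After background subtraction 2 of 9 such serpins were called, and both were lower.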
